A study of Mus musculus with 10 samples.

Results

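The BCL2 family holds the proteins that decide whether the outer membrane of the mitochondrion stays closed or opens in a cell under stress. Survival proteins such as Bcl-2, Bcl-xL, Bcl-w and Mcl-1 bind and restrain the effectors Bax and Bak, which otherwise form pores that release cytochrome c. BH3-only proteins such as Bid, Bim and Bad sense damage or lost trophic support and tip that balance towards death. In developing cortical neurons the same proteins govern the naturally occurring death of surplus cells. Several of them are short-lived and are removed by the proteasome, the complex that degrades ubiquitin-tagged proteins. The arrays described here measured messenger RNA and not these proteins.

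The genes followed were Bcl2, Bcl2l1, Bcl2l2, Mcl1, Bax, Bak1, Bad, Bid, Bcl2l11 and Bnip3, and every probe set that the platform annotation assigns to 1 of these 10 symbols, or to a synonym, was taken. Of the 10 genes, 9 had a probe set and 8 had one on both array designs, out of 8251 genes named on the U74Av2 design. Together they carried 15 probe sets, 13 of them on both designs, out of 9977 shared probe sets that are not controls. No probe set was named for Bax in the annotation used, so that Bax was not analysed here. Bcl2l2 was on the U74Av2 design alone.

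The samples were primary cortical neuron cultures from foetal Swiss albino mice at gestation day 15 to 16, kept in serum-free NB medium and treated on day 5 in vitro. Lactacystin, an irreversible inhibitor of the proteasome dissolved in DMSO, was given at 1 µM for 24 h (3 arrays) or 48 h (3 arrays), and control cultures were taken at 24 h (2 arrays) and 48 h (2 arrays). What the control cultures received in place of lactacystin, and whether arrays of a group came from separate cultures, is not given in the labels. The p-values therefore measure the spread between these arrays, which may be technical.

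In each group 1 array was of the older U74A design and the others were U74Av2. Signals were read from scanned Affymetrix arrays and, after scaling to a common trimmed mean of 500, had no unit beyond brightness, so that differences were taken between arrays for 1 probe set at a time. Levels were set across probe sets only to choose the brightest for a gene and to add up marker signals. The number of arrays limits the precision. Across all genes, 1038 of 6984 tested probe sets passed an adjusted p of 0.05 at 24 h (573 higher and 465 lower under lactacystin) and 722 at 48 h (473 higher and 249 lower). When arrays were scaled to a common median instead, the 48 h split was 286 higher and 636 lower. That scaling moved the median change of all probe sets at 48 h by -0.15 on the log2 scale.

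Of the 8 family genes measured on both designs, 1 passed the test at 24 h, where 14.9% of all tested probe sets did, and this was Bid, which rose, as did 8.20% of all. None of the 8 passed at 48 h, where 10.3% of all probe sets did. Averaged over both times, Bcl2l11 was the only family gene of the 8 to pass, against 17.0% of all probe sets, and it rose, as did 9.52%. With 8 genes, 1 call or none is close to these background shares and is no result about the family as a group. The tests were limma's moderated tests on log2(signal + 32) with Benjamini-Hochberg adjustment over all 6984 probe sets. At an unadjusted p below 0.05, 2 of the 8 genes stood at each time: Bid and Bak1 at 24 h, against 29.4% of all probe sets, and Bid and Bcl2l11 at 48 h, against 24.8%.

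**Figure D1:**
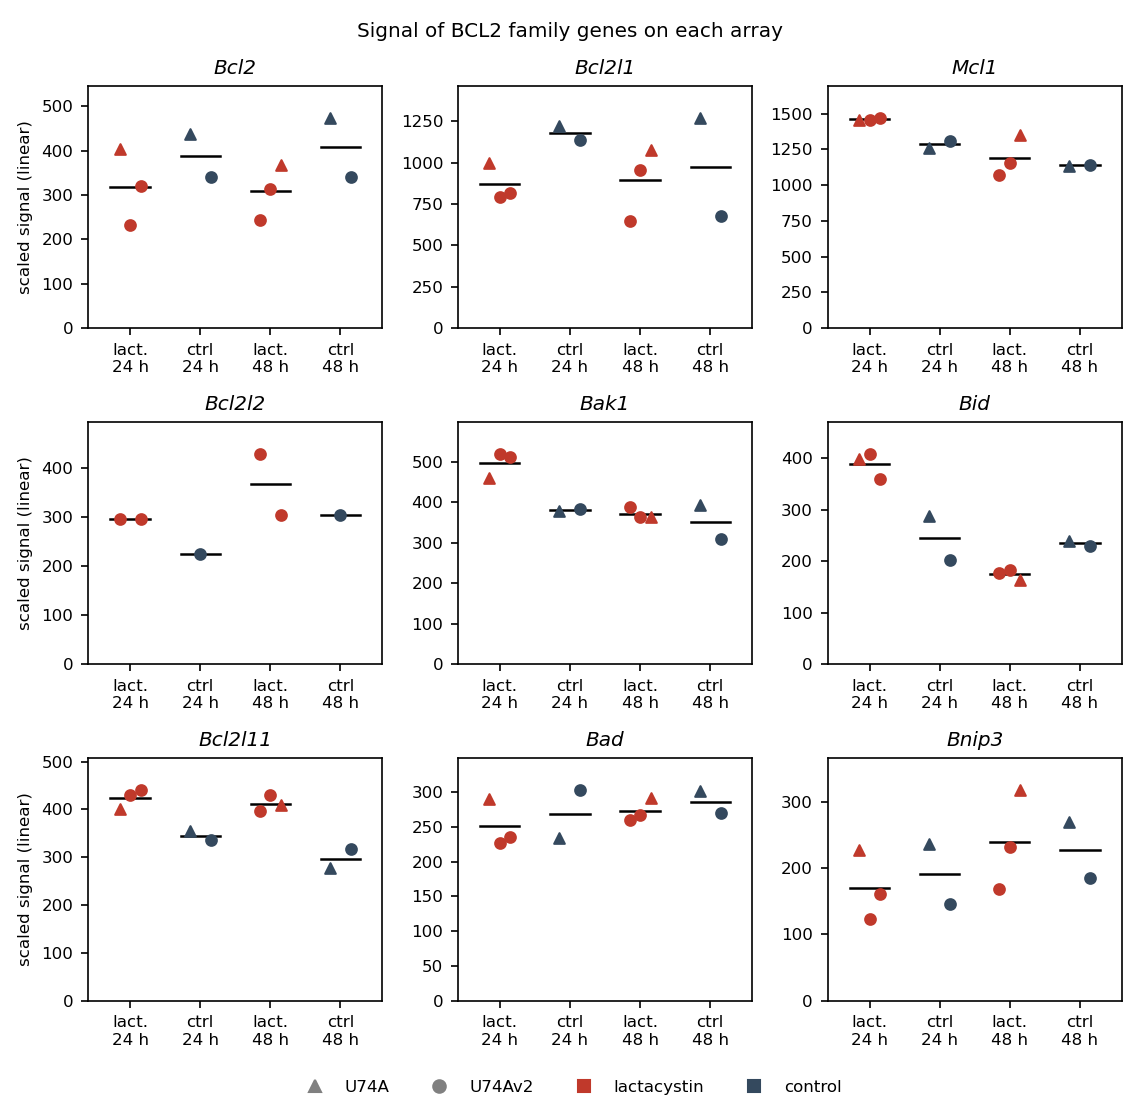
Scaled signal (linear scale, no unit) of 9 BCL2 family genes on every array, with lactacystin groups left of their controls at 24 h and 48 h. Triangles are U74A arrays, circles are U74Av2 arrays and the bars are group means. Bid lies between 360.4 and 408.4 under lactacystin and at 286.9 and 201.5 in controls at 24 h, and below its controls at 48 h.

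The 250 bases before the RefSeq start sites of Bid and Bcl2l11 are shown because these genes carried the changes that passed the test. Capitals mark matches on either strand to GGGCGG, the core of the GC box bound by Sp1-type factors, and to GTAAACA, a core of forkhead (FOXO) sites. Both are on GRCm38.p6 and were read 5′ to 3′ along the gene, Bid from chr6:120916825-120917074 on the minus strand and Bcl2l11 from chr2:128125788-128126037 on the plus strand.
Bid: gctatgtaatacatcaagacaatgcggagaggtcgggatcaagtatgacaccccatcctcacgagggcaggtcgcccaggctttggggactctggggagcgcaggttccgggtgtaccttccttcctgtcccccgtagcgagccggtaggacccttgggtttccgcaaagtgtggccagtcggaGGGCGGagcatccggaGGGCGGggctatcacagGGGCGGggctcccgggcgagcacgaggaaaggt
Bcl2l11: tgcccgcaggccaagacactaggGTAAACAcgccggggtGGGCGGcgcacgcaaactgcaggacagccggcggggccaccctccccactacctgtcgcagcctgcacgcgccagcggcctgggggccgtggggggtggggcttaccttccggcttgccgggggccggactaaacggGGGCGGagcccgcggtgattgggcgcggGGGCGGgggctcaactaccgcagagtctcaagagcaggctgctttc

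The Bid sequence held GGGCGG at positions -66, -50 and -33 from the start site. The first start site of Bcl2l11 held GTAAACA at -227 and GGGCGG at -211, -74 and -46. GTAAACA occurred in 1 of the 14 start sites that RefSeq gives for the 10 genes and in 3.65% of all 32851 mouse promoters of the same length (250 bases before to 50 after the start), and GGGCGG occurred in 9 of the 14 and in 35.7% of all. Neither CACGTG, the E-box, which 7.15% of all promoters hold, nor the p53 half-site, which 8.36% hold, was found in these windows of Bid and Bcl2l11. A match is a stretch of letters, and binding was not measured.

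Bid, the BH3-only protein that caspase-8 cleaves to carry a death-receptor signal to the mitochondrion, was the family member that rose at 24 h. Its signals were 397.9, 408.4 and 360.4 under lactacystin, against 286.9 and 201.5 in controls at 24 h. Every lactacystin array was above both controls, and the 2 controls were further apart than the 3 treated arrays. The means were 388.9 ± 25.2 (SD, n = 3) under lactacystin and 244.2 ± 60.4 (SD, n = 2) in controls. The fitted log2 change was 0.64 ± 0.16 (SE), a 1.56-fold rise with a 95% interval from 0.30 to 0.98 on the log2 scale and an adjusted p of 0.0189. Within the designs the 24 h change in log2 signal was 0.43 on U74A and 0.83 on U74Av2. The U74Av2 value rests on a single 24 h control array, the lower of the pair at 201.5. In a fit of the 6 U74Av2 arrays, where other groups supply the spread for that control, its adjusted p was 0.0399 and 7.56% of 8696 probe sets passed. Without that same array, the second control at 24 h, in the fit of all arrays, the change was 0.39 with an adjusted p of 0.297. It was 0.59 (adjusted p = 0.0644) without the second lactacystin array at 24 h and 0.62 (adjusted p = 0.0858) without the design covariate. In RNA from whole cultures, fewer cells of a type and less RNA per cell cannot be told apart.

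At 48 h the order of the Bid signals was turned round. They were 177.7, 183.7 and 164.4 under lactacystin, against 239.9 and 230.3 in controls, so that every lactacystin array lay below both controls. The means were 175.3 ± 9.85 (SD, n = 3) under lactacystin and 235.1 ± 6.78 (SD, n = 2) in controls. The change of -0.35 ± 0.16 did not pass the adjusted threshold (adjusted p = 0.189, interval -0.70 to -0.01). It was -0.47 within U74A and -0.30 within U74Av2. Of all tested probe sets, 0.544% (38 of 6984) lay above every control at 24 h and below every control at 48 h.

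The difference between the Bid effects, 48 h minus 24 h, was -0.99 ± 0.22 on the log2 scale, with a 95% interval from -1.47 to -0.51. Its adjusted p was 0.0538, which missed the threshold, as it did for each of the 8 genes, where 1.23% of all probe sets passed. Unadjusted, the p was 0.000801, the 104th smallest of 6984, and Bid was the only one of the 8 genes with an unadjusted p below 0.05 for this difference, against 16.2% of all probe sets. Leaving out 1 array at a time gave values from -1.22 to -0.76 and adjusted p from 0.0579 to 0.226. In control cultures Bid differed by -0.03 between 48 h and 24 h (adjusted p = 0.990), and none of the 8 genes passed there, as was the case for 0.00% of all probe sets.

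**Figure D2:**
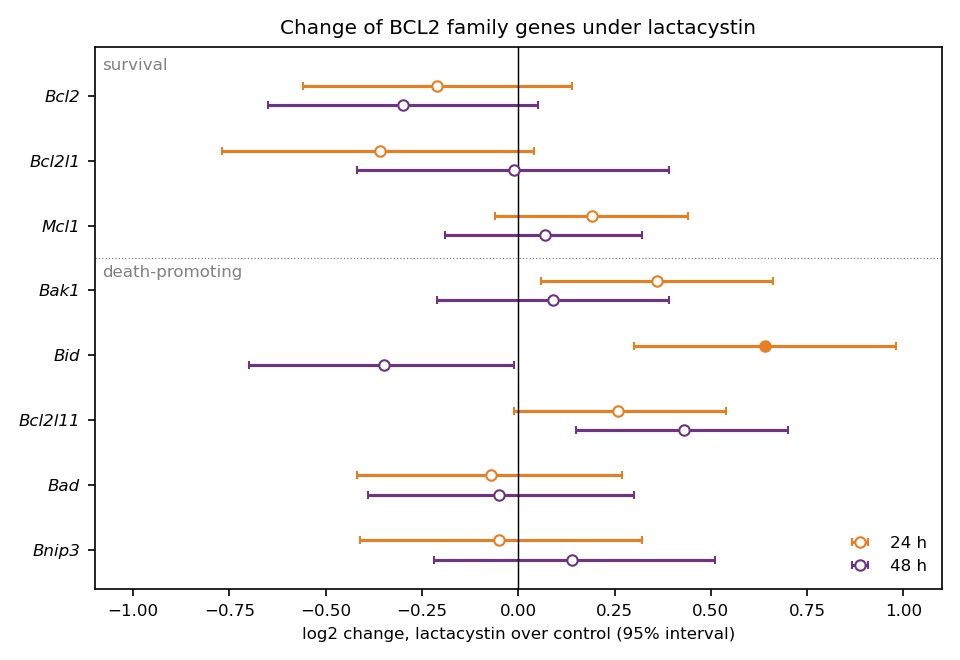
Fitted log2 change, lactacystin over control, of 8 BCL2 family genes at 24 h (orange) and 48 h (purple), with 95% intervals from limma. A filled circle marks an adjusted p below 0.05, which only Bid at 24 h reached. The Bid intervals at 24 h (0.30 to 0.98) and 48 h (-0.70 to -0.01) lie on opposite sides of 0.

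Bcl2l11 encodes Bim, a BH3-only protein that binds all the survival members and is induced in neurons deprived of trophic support. Its brightest probe set read 401.5, 431.0 and 440.6 under lactacystin, against 355.3 and 335.5 in controls at 24 h. At 48 h it read 396.7, 430.7 and 408.8 under lactacystin, against 277.5 and 316.5 in controls. All 6 lactacystin arrays were above all 4 controls, an order whose share over all probe sets was not counted. Within a time, every lactacystin array lay above every control for 17.2% of all probe sets at 24 h and 16.6% at 48 h. The 24 h means were 424.4 ± 20.4 (SD, n = 3) under lactacystin and 345.4 ± 14.0 (SD, n = 2) in controls, and the 48 h means were 412.1 ± 17.2 (SD, n = 3) under lactacystin and 297.0 ± 27.5 (SD, n = 2) in controls.

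Averaged over both times, Bcl2l11 rose by 0.34 ± 0.09 on the log2 scale, 1.27-fold, with an interval from 0.14 to 0.55 and an adjusted p of 0.0265. Taken singly, the change was 0.26 ± 0.13 at 24 h (adjusted p = 0.188) and 0.43 ± 0.13 at 48 h (adjusted p = 0.0544). The effects at 48 h and 24 h differed by 0.16 ± 0.18 (adjusted p = 0.697, interval -0.23 to 0.55). Within U74A and U74Av2 the change was 0.16 and 0.35 at 24 h and 0.51 and 0.35 at 48 h.

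The call for Bcl2l11 over both times depended on single arrays and on the processing. It was lost with common-median scaling (adjusted p = 0.0708), quantile normalization (0.0552), no design covariate (0.0555) and the U74Av2 arrays alone (0.144). It was also lost without the third lactacystin array at 24 h (adjusted p = 0.0567), the second control at 24 h (0.0796), the third lactacystin array at 48 h (0.0644) and either control at 48 h (0.0758 without the first, 0.0617 without the second). The change itself stayed between 0.30 and 0.39 with any 1 array left out. A second Bcl2l11 probe set, which read 239.7, 101.0 and 102.0 under lactacystin against 155.5 and 96.7 in controls at 24 h, overlapped between the groups. At 48 h that probe set read 115.0, 153.1 and 199.8 under lactacystin against 149.8 and 67.2 in controls, and its change over both times was 0.41 ± 0.14 (adjusted p = 0.0698). The remaining Bcl2l11 probe set had a mean signal of 16.3 and was left out as low.

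**Figure D3:**
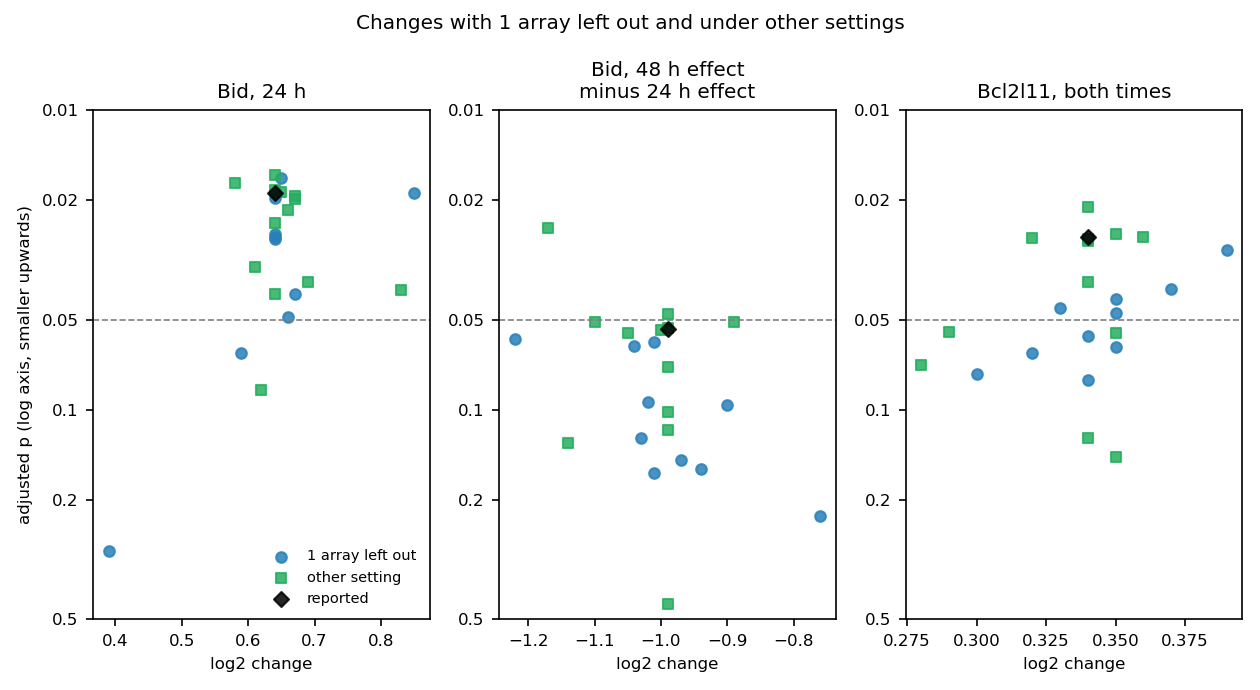
Log2 change against adjusted p (log axis, smaller values upwards) for the Bid change at 24 h, the Bid effect at 48 h minus 24 h, and the Bcl2l11 change over both times. Black diamonds are the reported values, blue circles are fits with 1 array left out, green squares are other settings, and the dashed line is an adjusted p of 0.05. Points lie on both sides of the line in each panel.

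Some markers of the cells in these cultures changed under lactacystin. Of 10 neuron markers, 6 were measured, and their summed signal was 7671.5 to 8828.1 under lactacystin against 10574.6 to 11863.1 in controls at 24 h, and 8898.9 to 10308.3 under lactacystin against 11225.0 to 12603.8 in controls at 48 h. Of these 6, 1 passed at each time, beside 14.9% of all probe sets at 24 h and 10.3% at 48 h. Dcx fell at 24 h (-0.64, adjusted p = 0.00229) and Snap25 at 48 h (-0.55, adjusted p = 0.0381). With 6 genes, 1 call is close to these shares. The 6 changes ran from -0.74 to 0.41 at 24 h and from -0.55 to 0.43 at 48 h, with Nefm the highest at both times. Their median was -0.19 at 24 h and -0.31 at 48 h. The sums of signals weigh the brightest markers most. Of 10 astrocyte and radial glia markers, 7 were measured, with sums of 11355.6 to 16107.5 under lactacystin against 11866.7 to 17788.0 in controls at 24 h, and 15227.9 to 18509.9 under lactacystin against 12156.9 to 18011.7 in controls at 48 h. Of the 6 tested, 1 rose and 2 fell at 24 h and 3 rose at 48 h, beside 14.9% and 10.3% of all probe sets. Gfap fell at 24 h (-0.64, adjusted p = 0.0153) and rose at 48 h (1.40, adjusted p = 0.000328). A second Gfap probe set changed by -1.09 at 24 h (adjusted p = 0.0201) and by 0.77 at 48 h (adjusted p = 0.0976). Aqp4 fell at 24 h (-1.89, adjusted p = 7.28e-05), Gja1 rose at both times (1.04 and 0.90) and Ntsr2 rose at 48 h (0.87). Slc1a2 and Fabp7 did not pass at either time.

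All 10 microglia and macrophage markers were measured, with sums of 735.0 to 1413.8 under lactacystin against 600.4 to 884.4 in controls at 24 h, and 994.7 to 1593.5 under lactacystin against 516.8 to 1065.2 in controls at 48 h. Itgam was under 32 on every array. Of the 6 tested, 1 passed at 24 h and 3 at 48 h, beside 14.9% and 10.3% of all probe sets. Cd68 rose at both times (1.41 and 1.47), and Tyrobp (1.04) and Ctss (0.76) rose at 48 h. The other tested markers of this list did not pass, among them C1qa (-0.43 at 24 h and 0.14 at 48 h) and Cx3cr1 (-0.16 and -0.03), and the median of the 6 tested was -0.04 at 24 h and 0.47 at 48 h. The 10 measured fibroblast, mural and meningeal markers, of 11 listed, summed to 2749.2 to 3865.3 under lactacystin against 2391.1 to 2457.1 in controls at 24 h, and to 3354.3 to 5082.0 under lactacystin against 2417.5 to 2441.6 in controls at 48 h. Of the 9 tested, 1 passed at 24 h and 2 at 48 h, beside the same shares of all probe sets. Tagln rose at both times (1.24 and 2.12) and Acta2 at 48 h (2.10), while the other tested genes of the list did not pass. Among those, Col1a1 (-0.38), Col3a1 (-0.36), Dcn (-0.40) and Lum (-0.52) were negative at 24 h, and the median of the 9 tested was -0.25 at 24 h and 0.36 at 48 h. The 6 endothelial markers summed to 236.0 to 260.4 under lactacystin against 164.0 to 215.9 in controls at 24 h, and to 176.0 to 242.3 under lactacystin against 152.2 to 159.4 in controls at 48 h, and neither of the 2 that were tested passed. The endothelial markers Cdh5, Tek and Cldn5 and the oligodendrocyte marker Mag were under 32 on every array. The part of these markers in the changes of Bid, Bcl2l11 and the other family genes was not tested.

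Bak1, an effector that forms pores in the outer mitochondrial membrane, read 460.2, 519.0 and 511.6 under lactacystin at 24 h, against 378.2 and 382.5 in controls. All treated arrays were above both controls. The change of 0.36 ± 0.14 did not pass (adjusted p = 0.106, interval 0.06 to 0.66). At 48 h the signals were 386.8, 363.7 and 364.1 under lactacystin and 391.9 and 308.5 in controls, which overlapped, and the change was 0.09 ± 0.14 (adjusted p = 0.761).

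Among the survival members, Mcl1 encodes a short-lived protein whose loss commits many cells to death. It read 1457.9, 1454.7 and 1472.1 under lactacystin at 24 h, against 1259.0 and 1310.9 in controls. These groups did not overlap, but the change was only 0.19 ± 0.12 (adjusted p = 0.295, interval -0.06 to 0.44). The 48 h signals were 1068.2, 1153.6 and 1348.6 under lactacystin and 1132.0 and 1143.2 in controls, with a change of 0.07 ± 0.12 (adjusted p = 0.782). The treated arrays at 48 h lay on both sides of the controls.

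Bcl2l1, which encodes Bcl-xL, the survival protein that newly formed neurons of the mouse embryo require, went the other way at 24 h. It read 1001.0, 791.6 and 816.9 under lactacystin, against 1219.4 and 1139.2 in controls, with every treated array below both controls. The change of -0.36 ± 0.18 did not pass (adjusted p = 0.217, interval -0.77 to 0.04). In a fit of the 24 h arrays alone it was -0.40 with an adjusted p of 0.0379, and without the second control at 24 h it was -0.14 with an adjusted p of 0.814. At 48 h the control arrays were as far apart as 1272.8 and 675.4, and the lactacystin arrays, at 647.1, 958.4 and 1074.9, were spread across the same range. The 48 h change was -0.01 ± 0.18 (adjusted p = 0.978, interval -0.42 to 0.39).

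Bcl2, the founding survival gene of the family, had 2 tested probe sets, and they did not move together. The brighter read 404.1, 232.3 and 320.2 under lactacystin against 438.1 and 340.0 in controls at 24 h. Its 48 h signals were 243.8, 314.1 and 366.9 under lactacystin against 474.7 and 341.4 in controls. The groups overlapped at both times, and the changes were -0.21 ± 0.16 (adjusted p = 0.409) and -0.30 ± 0.16 (adjusted p = 0.280). The other probe set read 279.8, 263.4 and 185.9 under lactacystin against 227.0 and 202.8 in controls at 24 h, with a change of 0.21 ± 0.19 (adjusted p = 0.509), and its change at 48 h was 0.02 (adjusted p = 0.967). A further Bcl2 probe set, with a mean signal of 49.8, and a Bcl2l1 probe set, with a mean of 9.21, were left out as low.

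Bcl2l2 encodes Bcl-w, a survival protein abundant in adult neurons, and could be read on the U74Av2 arrays alone. Its signals were 294.6 and 294.7 under lactacystin against 224.6 in the single control at 24 h, and 427.9 and 304.2 under lactacystin against 303.0 in the single control at 48 h. The changes in the U74Av2 fit were 0.35 ± 0.22 at 24 h (adjusted p = 0.372, interval -0.18 to 0.87) and 0.23 ± 0.22 at 48 h (adjusted p = 0.573). With 1 control at each time, the spread was borrowed from the other groups.

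Bad, a BH3-only protein that 14-3-3 proteins hold inactive while it is phosphorylated, read 289.8, 226.2 and 235.5 under lactacystin against 234.5 and 303.0 in controls at 24 h. The 48 h signals were 259.5, 267.4 and 291.5 under lactacystin against 300.9 and 270.4 in controls. The groups overlapped at both times, and the changes were -0.07 ± 0.16 (adjusted p = 0.797) and -0.05 ± 0.16 (adjusted p = 0.905). A Bad probe set that only the U74Av2 design carries changed by 0.00 at 24 h and by 0.35 ± 0.21 at 48 h (adjusted p = 0.363).

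Bnip3, a BH3-like protein of the mitochondrial surface that hypoxia induces and that marks mitochondria for autophagy, read 227.5, 123.2 and 160.4 under lactacystin against 236.7 and 145.4 in controls at 24 h. The 48 h signals were 168.9, 231.6 and 317.4 under lactacystin against 269.3 and 184.9 in controls. In every group the U74A array was the highest, and treated and control arrays overlapped at both times. The changes were -0.05 ± 0.17 at 24 h (adjusted p = 0.884) and 0.14 ± 0.17 at 48 h (adjusted p = 0.670).

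Survival and death-promoting members were set side by side as a description. The 5 tested death-promoting genes had a median log2 change of 0.26 at 24 h and 0.09 at 48 h, and the 3 tested survival genes had medians of -0.21 and -0.01, against -0.03 and 0.04 over all tested probe sets. At both times 3 of the 5 death-promoting genes had a positive value and 2 a negative one, and among the survival genes 1 was positive and 2 were negative. The survival median at 24 h was the value of the brighter Bcl2 probe set. The other tested Bcl2 probe set changed by 0.21 at 24 h and by 0.02 at 48 h. The sign of that median and the counts of survival genes therefore depended on the choice of probe set. At 24 h the lactacystin arrays lay wholly above the controls for 4 of the 8 genes (Bak1, Bcl2l11, Bid and Mcl1), where 17.2% of all probe sets did, and wholly below for 1 (Bcl2l1), where 18.9% did. At 48 h they lay wholly above for 1 gene (Bcl2l11), against 16.6% of all probe sets, and wholly below for 1 (Bid), against 9.87%. The 95% intervals of all 8 genes lay within -0.77 to 0.98 at 24 h and within -0.70 to 0.70 at 48 h.

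Other genes of the family were taken from a list of 16, of which 3 were measured well enough to test. Bok, an effector relative whose protein the proteasome keeps low, fell at 24 h. It read 547.9, 528.3 and 684.9 under lactacystin against 975.1 and 840.5 in controls, a log2 change of -0.58 ± 0.16 (adjusted p = 0.0352). All treated arrays were below both controls at 24 h, whereas at 48 h the groups overlapped and the change was -0.22 (adjusted p = 0.464). Bcl2l10 changed by 0.38 ± 0.27 at 24 h (adjusted p = 0.382) and 0.16 at 48 h, and Bcl2l13, a relative with a role in mitophagy, by 0.07 ± 0.12 and -0.07. The BH3-only genes Bik and Hrk, with mean signals of 13.9 and 42.0, were left out as low.

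Of 12 tested partners of the family's proteins, out of 24 listed, 1 rose and 1 fell at 24 h, and 1 fell at 48 h, beside 14.9% and 10.3% of all probe sets. Over both times 1 rose and 3 fell, beside 17.0% of all. Bag3, a co-chaperone of Hsp70 that binds Bcl-2, read 225.6, 192.9 and 257.3 under lactacystin against 114.8 and 75.8 in controls at 24 h, a rise of 1.04 ± 0.30 on the log2 scale (adjusted p = 0.0379). Its 48 h change was 0.78 ± 0.30 (adjusted p = 0.128). Ywhah, the 14-3-3 eta protein of the group that holds Bad, fell by 0.47 ± 0.10 at 24 h (adjusted p = 0.00868) and by 0.44 ± 0.10 at 48 h (adjusted p = 0.0174). All 6 lactacystin arrays lay between 3184.5 and 3864.6 and all 4 controls between 4500.9 and 5533.4. The share of all probe sets separated in this way was not counted. Over both times Bag3 rose by 0.91 ± 0.21 (adjusted p = 0.0120) and Ywhah fell by 0.46 ± 0.07 (adjusted p = 0.00143). The 14-3-3 genes Ywhag (-0.26, adjusted p = 0.0124) and Ywhaz (-0.30, adjusted p = 0.0240), named after their values were seen, fell over both times too. The other tested 14-3-3 genes did not pass at 24 h, at 48 h or over both times. These were Ywhab (-0.02 at 24 h and -0.20 at 48 h) and Ywhaq (-0.12 and -0.03).

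Among 12 tested transcription regulators of family genes, out of 16 listed, 1 rose at 24 h, 1 fell at 48 h, and over both times 1 rose and 1 fell. These shares were not above those of all probe sets (14.9%, 10.3% and 17.0%). Ddit3 encodes CHOP, an endoplasmic reticulum stress factor that induces Bcl2l11 and represses Bcl2. It read 576.2, 797.9 and 960.2 under lactacystin against 247.5 and 351.7 in controls at 24 h, a rise of 1.22 ± 0.16 (adjusted p = 0.000493). At 48 h it read 298.6, 316.5 and 249.7 under lactacystin against 259.0 and 258.6 in controls, and the effects at 48 h and 24 h differed by -1.14 ± 0.22 (adjusted p = 0.0290). Atf4, a regulator of the amino acid and stress response upstream of CHOP, changed by -0.12 at 24 h (adjusted p = 0.642) and fell by 0.99 ± 0.15 at 48 h (adjusted p = 0.00225).

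Genes that act after the outer membrane has opened did not pass at 24 h or 48 h, where 14.9% and 10.3% of all probe sets did. This held for the 6 tested genes of mitochondrial release, the apoptosome and executioner caspases, out of 12 listed, whose changes ran from -0.49 to 0.46 at 24 h and from -0.27 to 0.26 at 48 h. It held too for the 4 tested inhibitors of apoptosis, out of 9 listed, which ran from -0.24 to 0.25 and from -0.06 to 0.42. Over both times 1 of the 6 tested genes of mitochondrial release, the apoptosome and executioner caspases fell, where 17.0% of all probe sets passed. This was Casp9, the initiator caspase of the apoptosome, named after its value was seen (-0.38 ± 0.11, adjusted p = 0.0371). Its other tested probe sets changed by -0.51 and -0.24 at 24 h (adjusted p = 0.0659 and 0.420). At 48 h they changed by 0.08 and -0.12 (adjusted p = 0.832 and 0.761). Of 11 tested targets of HIF1, the hypoxia factor that drives Bnip3, out of 16 listed, 3 rose and 2 fell at 24 h and 1 fell at 48 h, beside 14.9% and 10.3% of all probe sets. The glycolytic enzyme Hk2 rose by 1.76 ± 0.18 (adjusted p = 0.000107), the glucose transporter Slc2a1 by 1.23 ± 0.26 (adjusted p = 0.00857) and the collagen prolyl hydroxylase P4ha1 by 0.84 ± 0.16 (adjusted p = 0.00599) at 24 h. The hypoxia-induced gene Ndrg1 fell by 0.58 ± 0.13 at 24 h (adjusted p = 0.0124) and by 0.52 ± 0.13 at 48 h (adjusted p = 0.0274), and Egln1, a prolyl hydroxylase that marks HIF1 for degradation and was named after its value was seen, fell by 0.44 ± 0.12 at 24 h (adjusted p = 0.0259).

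For each member that passed, the genes with the most similar pattern over the 10 arrays were found by Pearson correlation of log2 values after removal of the array design effect. The closest to Bid among 6309 singly annotated probe sets of other genes were BC005537 (r = 0.973), Rad23b (0.968), which encodes a carrier of ubiquitinated proteins to the proteasome, and U2af1 (0.961), a splicing factor. These rose at 24 h by 0.39, 0.49 and 0.36 on the log2 scale (adjusted p of 0.0333, 0.0163 and 0.0390) and changed by -0.14, -0.14 and -0.20 at 48 h. The closest to Bcl2l11 among 6308 such probe sets were Dnajc3 (r = 0.974), an endoplasmic reticulum co-chaperone, F2r (0.971), the thrombin receptor, and Klf3 (0.969), a transcription factor. F2r changed by 0.55 at 24 h and 0.87 at 48 h, Klf3 by 0.66 and 0.79, and Dnajc3 by 0.30 and 0.54, of which the values of F2r and Klf3 passed (adjusted p of 0.0206 and 0.00282, and of 0.0122 and 0.00695) and those of Dnajc3 did not (0.230 and 0.0519). These genes were picked as the closest and share the same arrays and treatment groups, so the correlations are a description.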

How the data were processed

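The authors deposited 1 processed signal per probe set and array for 4 U74A and 6 U74Av2 arrays. These are linear intensity values that the authors made with MAS5, per the submitters' processing notes, and that carry no counts. The version and further settings are not given in the sources used here. Gene symbols came from GEO's platform annotation, which gives 1 symbol for 8724 shared probe sets, several for 346 and none for 907.

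Each array was scaled to a trimmed mean of 500 (2% trimmed at each end) over the 9977 shared probe sets, after 66 control probe sets were left out. Values were transformed to log2(signal + 32), and the 30% with the lowest mean (2993 probe sets, mean signal under 54.7) were left out, which left 6984 to test. All 10 arrays entered 1 fit of the 4 groups with array design as a covariate (R 4.3.3, limma 3.58.1, lmFit and eBayes with trend, two-sided, 5 residual degrees of freedom). P-values were adjusted by Benjamini-Hochberg over all probe sets, at a threshold of 0.05. Each gene was represented by its brightest probe set on average. Probe sets found on U74Av2 alone were read from a fit of those 6 arrays (8696 probe sets). The code was tested on simulated data.

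The members, gene lists and alternatives were chosen with earlier results of these data known. All members were named with every singly annotated probe set. Tested genes of the other family list were named, as were at most 4 genes past the threshold from each other list and the 3 closest genes for each member past it. Promoter sequences came from RefSeq (GRCm38.p6), which matched all 10 genes. The alternatives were other pseudocounts, scalings, filters and variance models, fits without the design covariate, with a replicate block, of 1 design or 1 time, and leaving out each array.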

Additional observations from a re-analysis of the deposited data

Results flagged for a closer look

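Bid stood out because its lactacystin arrays were all above both controls at 24 h and all below both controls at 48 h. The lactacystin effect at 48 h minus that at 24 h was -0.99 ± 0.22 on the log2 scale, and the interaction test gave an adjusted p of 0.0538 (limma), which missed the threshold. The effects were 0.64 at 24 h and -0.35 at 48 h.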

How the results depend on the processing

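All values are log2 changes or counts of the 8 family genes past an adjusted p of 0.05. The number past it at 24 h was 0 without the design covariate (Bid 0.62, adjusted p = 0.0858), 2 in a fit of one time alone (Bid and Bcl2l1), and 0 to 1 with 1 array left out. At 48 h it was 1 (Bcl2l11, adjusted p = 0.0473) under a stricter filter on low probe sets (4989 tested) and 0 to 1 with 1 array left out. That 1 call came without the first lactacystin array at 24 h (Bcl2l11, adjusted p = 0.0493). Over both times it was 0 with common-median scaling (Bcl2l11 adjusted p = 0.0708), quantile normalization (0.0552), no design covariate (0.0555), the replicate block (0.34, adjusted p = 0.124) and U74Av2 arrays alone (0.144), and 0 to 1 with 1 array left out. For the 48 h effect minus the 24 h effect it was 1, Bid, with common-median scaling (-1.17, adjusted p = 0.0248) and with the stricter filter (-0.99, adjusted p = 0.0478), and 0 with any 1 array left out. The death-promoting median at 24 h was 0.35 on U74Av2 alone and 0.21 to 0.34 with 1 array left out. At 48 h it was -0.06 with common-median scaling, -0.03 with quantile normalization and -0.09 to 0.11 with 1 array left out. The survival median ran from -0.30 to -0.09 at 24 h and from -0.32 to 0.12 at 48 h with 1 array left out, and -0.32 came without the second control at 48 h. All of these survival medians used the brighter Bcl2 probe set.

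Changes that never passed and turned their sign while moving by more than their standard error were these. With 1 array left out, Bad at 24 h ran from -0.32 to 0.21, Bcl2l1 at 48 h from -0.33 to 0.26, Bak1 at 48 h from -0.12 to 0.27, Bid over both times from -0.11 to 0.31 and Bad for the difference between times from -0.23 to 0.29. Between 48 h and 24 h in controls, Bad ran from -0.17 to 0.35, Bid from -0.26 to 0.20 and Bak1 from -0.31 to 0.08. In each case the end with the turned sign came from leaving out a control array. With common-median scaling Mcl1 was -0.10 and Bak1 -0.06 at 48 h. On U74Av2 alone, Bcl2l1 at 48 h was 0.21, and the control time change was -0.15 for Bad and 0.17 for Bid. Smaller moves across 0 included Bnip3 at 24 h (0.03 without the second lactacystin array at 24 h), Mcl1 at 48 h (-0.04 on U74Av2 alone, -0.05 to 0.13 with 1 array left out) and Bak1 at 48 h (-0.03 with quantile normalization). The cause was not tested.

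Over all probe sets, the counts at 24 h ran from 248 without the design covariate to 1289 with one time alone, and were 657 on U74Av2 alone and 308 to 1107 with 1 array left out. At 48 h they ran from 110 without the design covariate to 922 with common-median scaling, and were 434 on U74Av2 alone, 440 with one time alone and 209 to 826 with 1 array left out. For the difference between times, against 86, they were 2 without the design covariate, 12 on U74Av2 alone, 36 with the variance fitted without trend, 48 with no filter, 153 with common-median scaling and 5 to 186 with 1 array left out (5 without the first control at 48 h, 186 without the first lactacystin array at 24 h). Over both times, against 1190, they were 493 without the design covariate, 747 with the replicate block, 593 on U74Av2 alone and 759 to 1151 with 1 array left out.

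Replicate numbers were not taken as pairs. Correlations of same-numbered arrays (-0.274, -0.202, 0.0869 and -0.0809) cannot test pairing, as removing group and design links them. The replicate block changed no other call of a family gene. With 2 or 3 arrays a group and 5 residual degrees of freedom, the 95% intervals of the 8 genes at 24 h were 0.50 to 0.81 wide on the log2 scale. Bax, and Bcl2l2 on the U74A design, were not analysed here.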
